A study of Danio rerio with 3 samples.

Results

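OPC and Pre-OL are a pair of oligodendrocyte lineage classes that the authors named among single cells of the 48 hpf (hours post fertilisation) zebrafish embryo. The members were all cells of the 48 hpf library whose class in the integrated annotation was OPC or Pre-OL. There were 127 OPC and 70 Pre-OL cells, together 197 of 2394 cells in that library and of 6264 cells in the whole series. The embryos were wild type apart from the transgene Tg(olig2:EGFP), untreated, and both classes came from the same sort for EGFP and the same 10x Chromium library, so neither class is a control for the other. The other libraries, at 24 and 36 hpf, came from the same line. The sample titles mark each library as a reanalysis. How many embryos were pooled for a library is not stated in the labels. The transgene reports olig2 activity, and EGFP protein can outlast that activity, so an EGFP-positive cell need not be expressing olig2 at the time of the sort. With 1 library at each stage nothing here has a replicate, and no p-value was computed. Intervals cover counting error over cells only.

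Oligodendrocyte precursor cells (OPC) arise from the olig2-expressing progenitors of the ventral spinal cord, spread through the cord, and can divide. Some of them leave the cell cycle and become oligodendrocytes, which wrap axons in myelin, while others persist as precursors. The transcription factors encoded by olig1 and sox10 act in the lineage as a whole, myrf encodes a transcription factor needed for the myelin programme, and mbpa encodes myelin basic protein, a structural component of the sheath. The tables used here list cells and hold no values per gene. The names OPC and Pre-OL could therefore not be checked against sox10, olig1, myrf or mbpa, and they are the authors' names throughout. The tables do not spell out Pre-OL. OL is the usual abbreviation of oligodendrocyte.

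OPC cells outnumbered Pre-OL cells at 48 hpf, and both annotations of the same cells gave nearly the same sizes. OPC made up 5.30% of the library (exact 95% binomial interval 4.44 to 6.28) and Pre-OL 2.92% (2.29 to 3.68) by the integrated names. The separate 48 hpf stage table, in which the authors annotated this library alone, named 131 cells OPC (5.47%) and 73 cells Pre-OL (3.05%). Pre-OL was thus 35.5% of the cells of both classes by the integrated names (28.9 to 42.6) and 35.8% by the stage names (29.2 to 42.8). In UMIs (unique molecular identifiers, each of which stands for an RNA molecule) OPC held 5.91% of the library and Pre-OL 3.36%. Both classes were nearly confined to this stage by the integrated names, since 127 of 131 OPC cells and 70 of 72 Pre-OL cells of all stages came from the 48 hpf library. The remaining 6 cells, 1 at 24 hpf and 5 at 36 hpf, carried other names in their own stage tables, and the Pre-OL pair at 36 hpf was named pMN2 there. No barcode of the 48 hpf library occurred in either earlier library. The libraries also differed in their median mitochondrial percent, 0.686, 1.06 and 2.35 at 24, 36 and 48 hpf, and stage and library cannot be told apart.

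The same cells were named alike in both tables. All 70 integrated Pre-OL cells were Pre-OL in the stage table, and 124 of 127 integrated OPC cells (97.6%, 93.3 to 99.5) were OPC there. The other 3 OPC cells were Pre-OL in the stage table, with 1555, 7254 and 8343 UMIs. All 3 were called G1 by the integrated table. In the opposite direction, 124 of 131 stage-table OPC cells (94.7%) and 70 of 73 stage-table Pre-OL cells (95.9%) kept their name in the integrated table. The remaining 7 stage-table OPC cells were spread over 6 integrated classes, none with more than 2 of them.

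In both deposited maps (2-dimensional embeddings of the cells) nearly all neighbours of OPC and of Pre-OL cells belonged to their own class. Among the 15 nearest 48 hpf neighbours of each OPC cell in the integrated map, 94.4% were OPC, 1.36% were Pre-OL and 4.25% belonged to other classes. For Pre-OL the shares were 96.9% Pre-OL, 1.05% OPC and 2.10% other classes, all of the latter MEP Glia. In the stage map 97.8% of the neighbours of OPC cells were OPC, and every neighbour of a Pre-OL cell was either Pre-OL (96.6%) or OPC (3.38%). Contact between the classes rested on few cells. In all, 2 of 127 OPC cells in the integrated map had a Pre-OL cell among their neighbours, and 6 of 70 Pre-OL cells had an OPC cell. Those 2 OPC cells, with 14 and 12 Pre-OL neighbours, were named Pre-OL in the stage table. In the integrated map the commonest other class beside OPC was MN4 (33 neighbours against 26 of Pre-OL), and beside Pre-OL it was MEP Glia (22 against 11 of OPC). All of the MN4 neighbours were those of a few outlying OPC cells, described below. In the stage map the commonest other class was Pre-OL beside OPC and OPC beside Pre-OL. The maps and class names were made from the same expression values, so these neighbours describe the annotation.

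**Figure D1:**
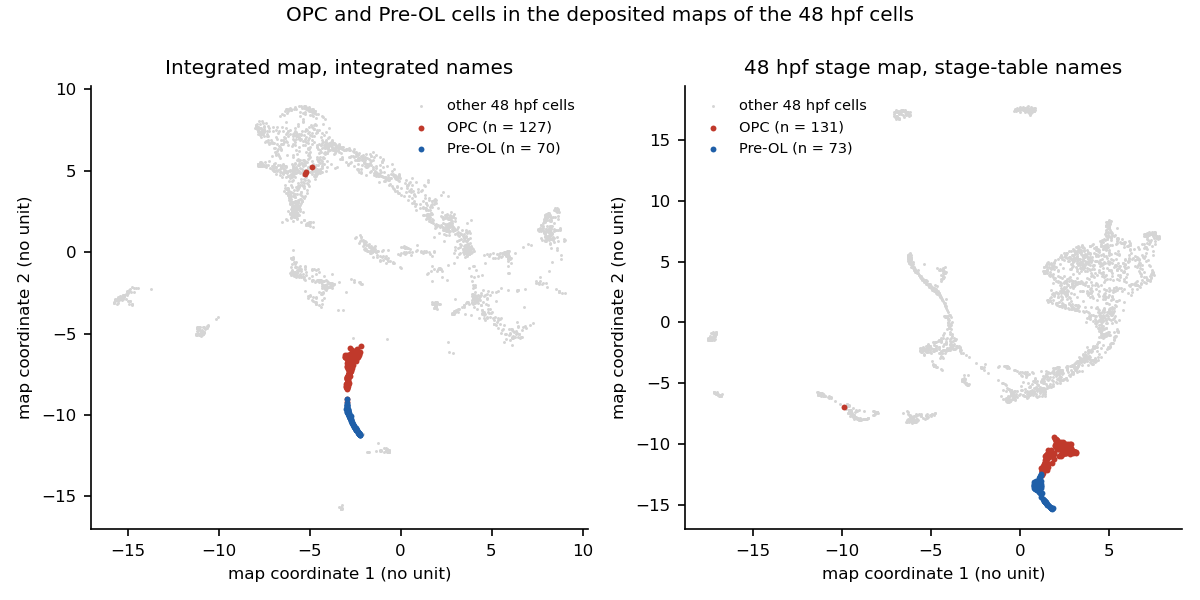
Both deposited maps of the 2394 cells of the 48 hpf library, with the map coordinates on both axes (no unit); each point is a cell, red for OPC, blue for Pre-OL and grey for other classes, by the names of the table the map belongs to. Most OPC cells (upper) and the Pre-OL cells (lower) lie in a common region of each map, and 3 OPC cells lie far from it in the integrated map.

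A few OPC cells stood away from their class. In the integrated map 3 OPC cells had MN4 motor neurons as most of their neighbours, with 11, 10 and 12 MN4 cells among the 15 and at most 1 OPC cell. They had 11044, 13451 and 13832 UMIs, more than the OPC upper quartile of 9682, and integrated S scores of -0.392, -0.319 and -0.367, against an OPC median of -0.141. The stage table also named all 3 OPC, and both tables called them G1. In the stage map 1 cell named OPC there lay among 15 MEP Glia neighbours, and the integrated table named this cell MEP Glia. These cells were picked out after their positions were seen. The labels do not say whether doublets (droplets with more than 1 cell) were removed, and calling them needs expression values that these tables of cells do not hold.

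The authors' tables give each cell an S score and a G2M score, which summarise genes active in DNA synthesis and in division, and a phase, which in all 197 cells was that of the higher score, or G1 if both scores were at or below 0. Each table has its own set of scores, and none of the 197 cells had the same S score in both. By the calls of the integrated table OPC held all the S and G2M calls of the pair. Of 127 OPC cells, 12 were called S or G2M (9.45%, exact 95% interval 4.98 to 15.9), 8 of them S and 4 G2M. Of 70 Pre-OL cells none was called S or G2M, which allows a share of up to 5.13% by the exact interval. The difference was 9.45 percentage points (Newcombe 95% interval 2.91 to 15.8). The single intervals overlapped between 4.98% and 5.13%, so the size rule used here (a ratio of at least 2 and exact intervals apart) was not met. Of all 2394 cells of the library 20.1% were called S or G2M by the integrated table. OPC was 11.9 points below the other 2197 cells (-16.2 to -5.34), which met the size rule.

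By the calls of the stage table, more cells of both classes were in S and none was in G2M. Of the OPC cells 41 were called S (32.3%, 24.3 to 41.2), and of the Pre-OL cells 8 (11.4%, 5.07 to 21.3). The OPC share was 2.82-fold higher, a difference of 20.9 points (8.72 to 31.0), and it met the size rule. Among cells of at most 3% mitochondrial UMIs (89 OPC, 43 Pre-OL) the difference was 21.0 points and the intervals overlapped. Of all cells of the library 33.4% were called S or G2M by the stage table, 20.7% S and 12.7% G2M. OPC differed from the cells of the other classes by -1.85 points for S or G2M (-9.63 to 6.91). For S alone it was 12.0 points above them (4.28 to 20.7), and neither difference met the size rule. No G2M call was made in 127 OPC cells (up to 2.86%) or in 70 Pre-OL cells (up to 5.13%). The highest stage-table G2M score was -0.0328 in OPC and -0.0421 in Pre-OL, both below the 0 needed for a call. The 4 OPC cells that the integrated table called G2M had integrated G2M scores of 0.0250, 0.0260, 0.0355 and 0.0793. In the stage table, 2 of these cells were S and 2 were G1, so no G2M call in either class was shared by both tables.

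**Figure D2:**
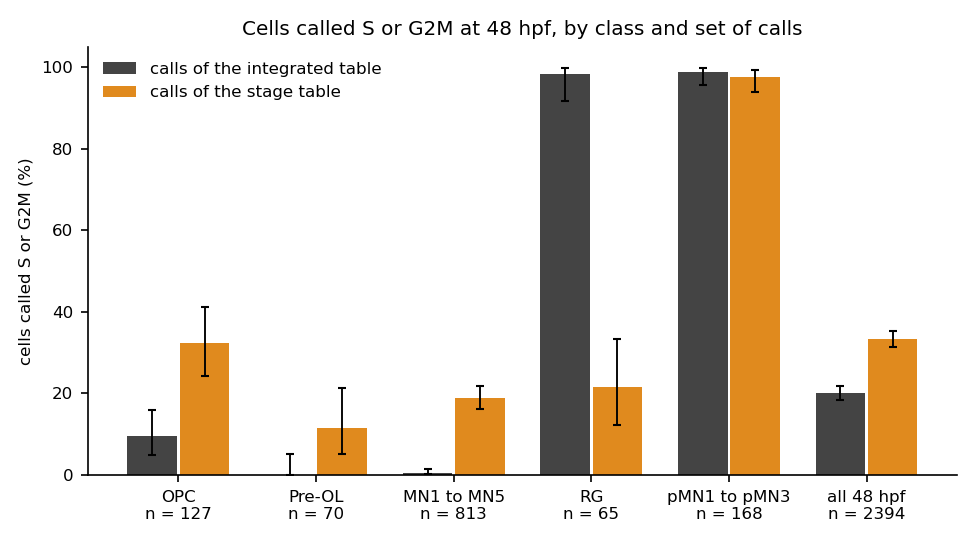
Share of cells called S or G2M (percent) in the 48 hpf library, by class and by set of calls; bars are shares of the n cells under each class name and lines are exact 95% binomial intervals. OPC is above Pre-OL in both sets of calls, and the stage-table bar of OPC, 32.3%, is higher than its integrated bar, 9.45%.

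Motor neurons have left the cell cycle, so the cells that the authors named MN1 to MN5 served as a reference for calls made without division. Of the 813 cells of MN1 to MN5 in the same library, 0.615% (0.200 to 1.43) were called S or G2M by the integrated table and 18.9% (16.3 to 21.8) by the stage table. By the stage table these classes differed, from 9.05% in MN4 to 32.4% in MN5 (77 of 238), the latter near the 32.3% of OPC. MN1, MN2 and MN3 were at 15.7%, 15.3% and 17.7%. For S calls alone MN5 was at 24.4%. By the integrated table the highest was MN4 with 0.952%. Outside MN1 to MN5, Pre-MN (0 of 161 cells) and NP2 (0 of 99) also had no S or G2M call in the integrated table. By the stage table they were at 35.4% (57 of 161) and 49.5% (49 of 99), both above OPC. Their S calls alone were at 28.6% and 32.3%, the latter the same as in OPC. MN1 and MN3, at the lower shares above, had no integrated call either. The reference level is therefore that of the pooled MN1 to MN5 cells alone. OPC stood 8.83 points above this pooled level by the integrated calls (4.79 to 15.2), a difference that met the size rule. By the stage-table calls OPC stood 13.3 points above it (5.31 to 22.3), a ratio of 1.70 that did not. For S calls alone, the stage table gave OPC 32.3% and motor neurons 13.3%, a 2.43-fold difference of 19.0 points (11.1 to 27.8) that met the rule. The share of Pre-OL cells differed from theirs by -0.615 points in the integrated calls (-1.43 to 4.60) and by -7.51 points in the stage-table calls (-13.7 to 2.36). These intervals leave room for a Pre-OL share a few points above the motor neuron level. Motor neurons were shallower, with a median of 4695 UMIs against 7939 in OPC and 8669 in Pre-OL, so the comparison was repeated within bands of UMIs, a choice made after seeing the data. Median UMIs ran from 3401.5 in MN5, the class with the highest stage-table share, to 9200.5 in MN4, the class with the lowest. The mix of MN1 to MN5 therefore differed between the bands, and it was not counted. By the stage-table calls OPC was 3.05-fold above the motor neurons at 6000 to 9000 UMIs (34.4% against 11.3%) and 3.64-fold above them from 9000 UMIs (23.8% against 6.54%), and both met the size rule. Below 6000 UMIs the ratio was 1.75 and the rule was not met. By the integrated calls OPC was above the motor neurons in each band, by 23.4, 4.69 and 7.56 points from the shallowest to the deepest, and met the rule only below 6000 UMIs. That band rested on 5 of 21 OPC cells, with 629, 803, 3963, 4513 and 5546 UMIs. The stage-table difference of Pre-OL from the motor neurons had no steady sign, with -1.40, 7.24 and -6.54 points in these bands, and each interval included 0.

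Both classes were far below the pMN progenitors. The pMN1 to pMN3 cells of this library, progenitors by their integrated names, were called S or G2M at 98.8% (166 of 168) by the integrated table and 97.6% by the stage table. In the stage table some of these cells had other names, among them MEP Glia and RG, and the agreement of their names was not counted. The stage-table share of S calls alone was 33.9% in these progenitors and 32.3% in OPC, a difference of -1.65 points (-12.2 to 9.23), but 63.7% of the progenitors and no OPC cell were called G2M. RG, the radial glia class, showed how far a class can move between the tables, with 98.5% (64 of 65 cells) called S or G2M by the integrated table and 21.5% by the stage table. OPC moved the other way, from 9.45% to 32.3%. So did Pre-OL (0% to 11.4%), the pooled motor neurons (0.615% to 18.9%) and the library as a whole (20.1% to 33.4%). The rise was therefore not particular to OPC. Some classes fell as RG did, among them MEP Glia (100% to 83.0%). Pre-OPC, another class of the lineage by its name, had 9 cells at 48 hpf, of which 5 were called S or G2M by the integrated table and 6 by the stage table. The stage table named 2 of these 9 cells OPC, and its names for the others included MN1 and Mes.

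Cell by cell, 84 OPC cells were G1 in both tables and 8 were S in both, so that 92 of 127 (72.4%, 63.8 to 80.0) had the same phase. The main discord was in 31 OPC cells that were G1 in the integrated table and S in the stage table. Pre-OL had 8 such cells, and the other 62 of 70 (88.6%, 78.7 to 94.9) were G1 in both. Called S or G2M in both tables were 10 OPC cells (7.87%, 3.84 to 14.0), no Pre-OL cell and 4 of 813 motor neurons (0.492%). All 8 OPC cells called S by the integrated table were also called S by the stage table.

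The stage-table S calls lay mostly just above the threshold of 0. In the 41 OPC cells called S there, the S score had a lowest value of 0.000252, a median of 0.0256 and a highest value of 0.378. In the 8 Pre-OL cells it ran from 0.00329 to 0.0581 with a median of 0.0275. The medians of the called cells were thus close. The highest value was larger in OPC, but a highest value tends to rise with the number of cells, here 41 against 8. Only 3 OPC cells had a score above 0.1, and they were the same 3 cells in both tables. Their S scores were 0.192, 0.214 and 0.589 in the integrated table and 0.120, 0.216 and 0.378 in the stage table. They had 11184, 16750 and 12764 UMIs. No Pre-OL cell had a score above 0.1 in either table. Of the motor neurons 1 of 813 passed 0.1 in both tables (0.123%), and of the pMN cells 162 of 168 (96.4%). At this stricter level the share was 2.36% in OPC (0.490 to 6.75) and 0% in Pre-OL (up to 5.13%), which the number of cells could not separate.

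**Figure D3:**
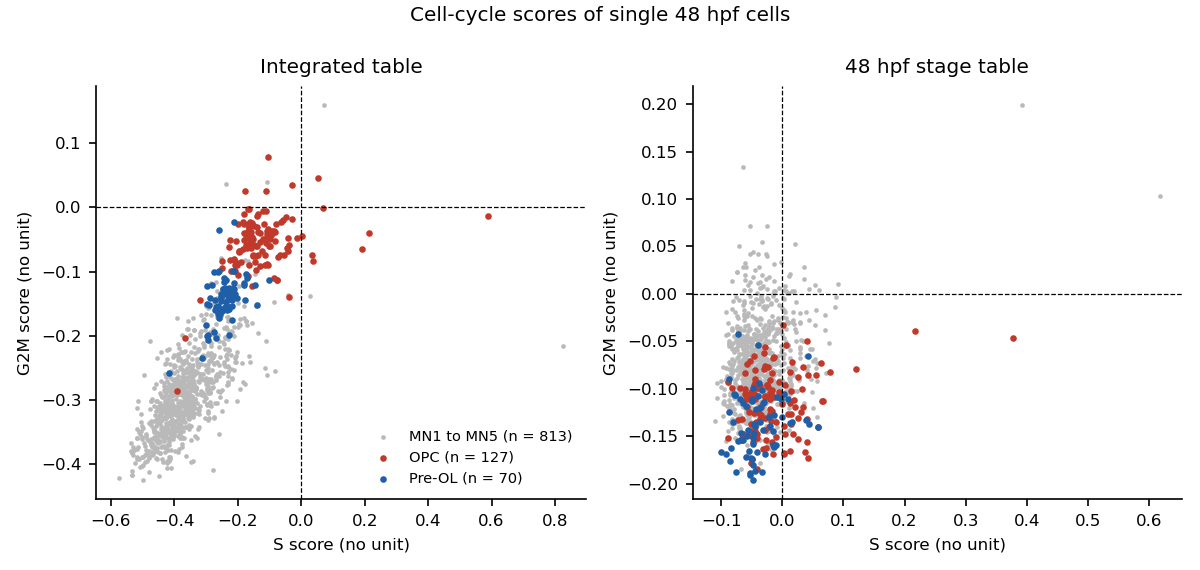
S score (horizontal) and G2M score (vertical), both without unit, of single cells in the integrated table (left) and the 48 hpf stage table (right); dashed lines mark 0, above which a phase other than G1 is called. Pre-OL lies between OPC and the motor neurons in the integrated scores, and in the stage-table scores both classes lie at the low end of the G2M axis.

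The scores themselves separated OPC from Pre-OL far more in the integrated table than in the stage table. The median integrated S score was -0.141 in OPC (interquartile range -0.171 to -0.0947) and -0.244 in Pre-OL (-0.263 to -0.217). OPC cells ran from -0.392 to 0.589 and Pre-OL cells from -0.416 to -0.103, so the ranges overlapped but the middle parts of the classes did not. In 92.5% of the 8890 pairs of an OPC and a Pre-OL cell, the OPC cell had the higher integrated S score. The G2M scores of that table gave a like picture, with medians of -0.0506 in OPC (-0.0749 to -0.0362) and -0.141 in Pre-OL (-0.159 to -0.121). There the OPC cell was higher in 94.8% of pairs. Most of this separation was among G1 cells below 0, since 115 of 127 OPC cells and all Pre-OL cells were G1.

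In the stage table the direction was the same and the overlap wider. Median S scores were -0.0227 in OPC (-0.0442 to 0.0112) and -0.0463 in Pre-OL (-0.0626 to -0.0226), and the OPC cell was higher in 68.8% of pairs. Median G2M scores were -0.111 in OPC and -0.138 in Pre-OL, with the OPC cell higher in 70.03% of pairs. The scales of the tables differ, so the differences of medians, 0.103 for S and 0.0908 for G2M in the integrated table against 0.0236 and 0.0267 in the stage table, are not in a common unit. The share of pairs does not depend on the scale. The scores and the class names were made from the same expression values, so the separation by class is not independent of the names.

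The place of both classes among the other classes turned between the tables for G2M. Of 19 classes with at least 50 cells at 48 hpf, OPC ranked 5 and Pre-OL ranked 8 from the highest median G2M score in the integrated table, both above every motor neuron class. In the stage table Pre-OL had the lowest and OPC the next lowest median of the 19, both below every motor neuron class. The motor neuron median was -0.296 in the integrated table and -0.0776 in the stage table, and 59 of 813 motor neurons had a stage-table G2M score above 0 while none of the 197 OPC and Pre-OL cells did. For S, OPC ranked 7 of 19 in both tables. Pre-OL ranked 8 in the integrated table and 14 in the stage table, there with a median of -0.0463 between those of MN3 (-0.0447) and MN4 (-0.0501). The order OPC above Pre-OL was therefore shared by both sets of scores, and by S score OPC was above each of MN1 to MN5 in both. By the stage-table S score OPC (-0.0227) was just below Pre-MN (-0.0208). The G2M order of both classes against motor neurons was not shared, nor was the S order of Pre-OL against them.

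**Figure D4:**
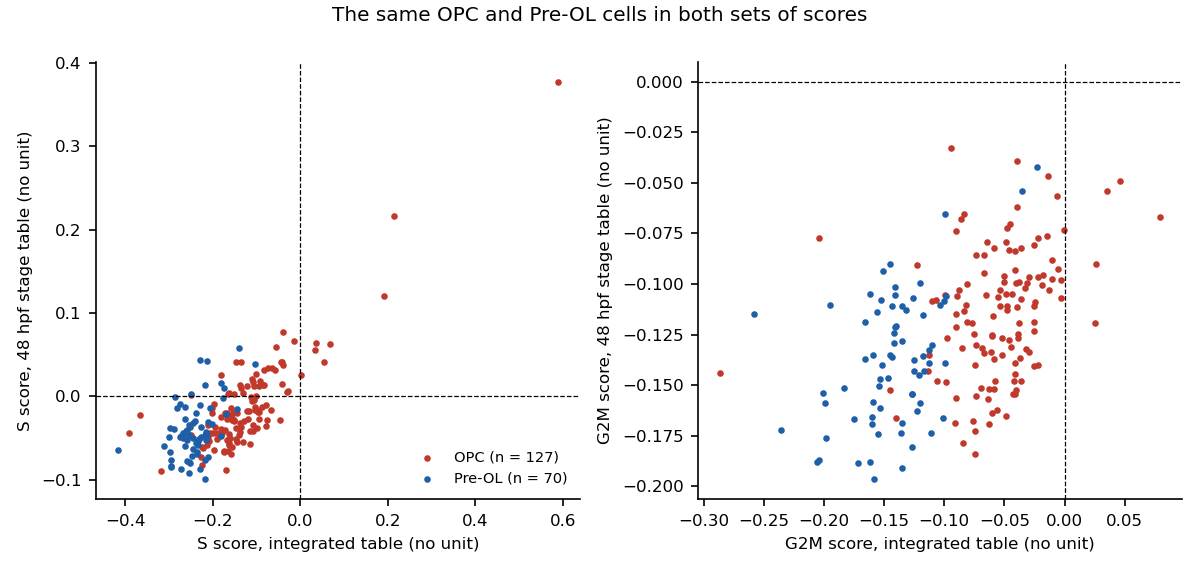
Scores of the same OPC (red) and Pre-OL (blue) cells in the integrated table (horizontal) and in the 48 hpf stage table (vertical), S scores on the left and G2M scores on the right, all without unit; dashed lines mark 0. All 197 cells lie below 0 on the stage-table G2M axis, and the 3 OPC cells with S scores above 0.1 stand apart in both tables.

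Across cells, the tables ranked OPC cells more alike by S score than by G2M score. Spearman's rho between both sets was 0.70 for S and 0.35 for G2M over the 127 OPC cells, and 0.35 and 0.36 over the 70 Pre-OL cells. These are descriptions over cells of 1 library whose scores come from the same reads.

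OPC and Pre-OL cells were both deeper than most of the library and differed little from each other in depth. The median OPC cell had 7939 UMIs (interquartile range 6364 to 9682, lowest 629, highest 19231) and the median Pre-OL cell 8669 (6473 to 10001, lowest 1366, highest 15012). The median of the other 2197 cells was 5515. Among the 19 classes Pre-OL ranked 5 and OPC 6 in median UMIs, after MEP Glia, pMN1, pMN2 and MN4. The difference of 730 UMIs between Pre-OL and OPC was small beside the spread of either class, and the Pre-OL cell was the deeper in 55.1% of pairs. Detected genes had medians of 2252 in OPC and 2401 in Pre-OL, 1.07-fold apart, and 1888 in the other cells. Cells of 6000 to 9000 UMIs had a median of 2193 genes in OPC (64 cells) and 2315 in Pre-OL (27 cells). From 9000 UMIs upward the medians were 2616 and 2682, and below 6000 UMIs OPC was the higher, with 1773 (21 cells) against 1632 (13 cells). Within each class UMIs and genes rose together, with a Spearman's rho of 0.95 in both.

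Mitochondrial UMIs took a slightly larger share of Pre-OL than of OPC cells. The median was 2.86% in Pre-OL (interquartile range 2.55 to 3.45) and 2.67% in OPC (2.14 to 3.11), against 2.32% in the other cells. Pre-OL had the highest median of the 19 classes and OPC ranked 4, with MN4 (2.79%) and MN1 (2.71%) between them. Cells over 3% were 27 of 70 in Pre-OL (38.6%, 27.2 to 51.0), 38 of 127 in OPC (29.9%, 22.1 to 38.7) and 19.3% of the other cells. The intervals of OPC and Pre-OL overlapped. The Pre-OL cell had the larger mitochondrial share in 61.0% of pairs.

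**Figure D5:**
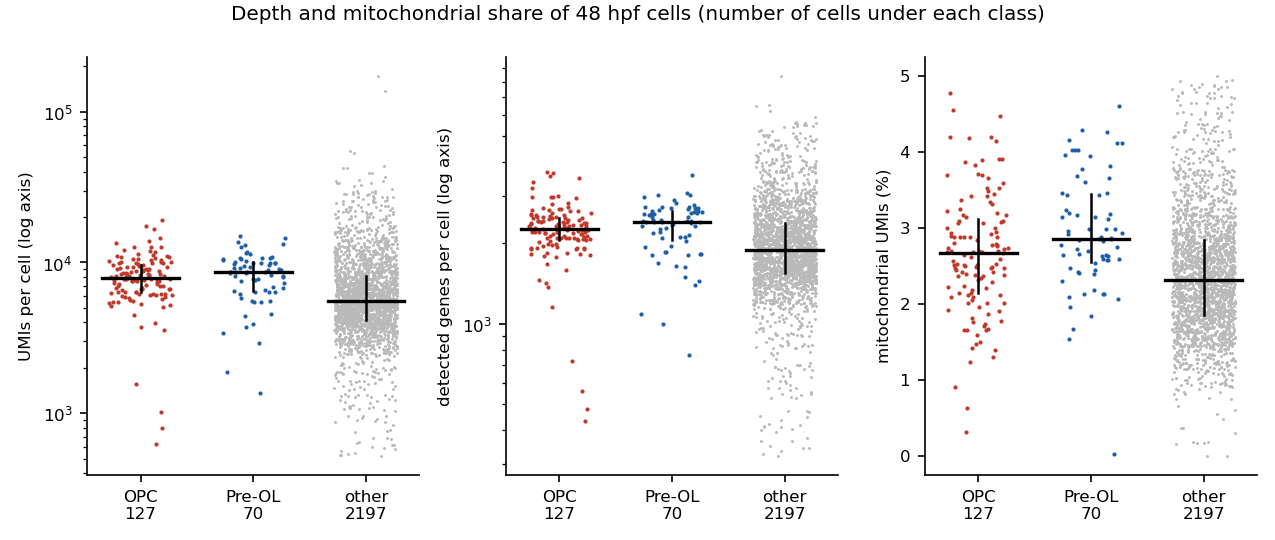
UMIs per cell and detected genes per cell (both on log axes) and the percent of mitochondrial UMIs in OPC, Pre-OL and all other 48 hpf cells; each point is a cell, horizontal lines are medians and vertical lines interquartile ranges, and the number of cells stands under each class. The OPC and Pre-OL medians, 7939 and 8669 UMIs, lie above that of the other cells, 5515.

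The shares of stage-table calls were lower in deeper bands of UMIs, but in OPC and in Pre-OL the intervals of the bands overlapped. Stage-table S calls took 42.9% of the OPC cells below 6000 UMIs (9 of 21, 21.8 to 66.0), 34.4% from 6000 to 9000 (22 of 64, 22.9 to 47.3) and 23.8% above (10 of 42, 12.1 to 39.5). Over all OPC cells Spearman's rho between UMIs and the S score was -0.107 with the stage-table score and -0.213 with the integrated score. Pre-OL went from 23.1% (3 of 13) to 18.5% (5 of 27) and 0% (0 of 30, up to 11.6%). Motor neurons called S or G2M by the same table were 24.5%, 11.3% and 6.54% in these bands, which differed in their mix of MN1 to MN5. Each of these shares was lower in each deeper band, and within each band the OPC share was above that of Pre-OL. By the integrated calls OPC was at 23.8% (5 of 21), 4.69% (3 of 64) and 9.52% (4 of 42), with 0 Pre-OL cells in every band. The 8 OPC cells called S by the integrated table, which ran from 803 to 16750 UMIs, had a higher median than its G1 cells, 9376 against 7979 UMIs. The 4 OPC cells that it called G2M were shallower, with a median of 4754.5 UMIs. The OPC cells called S by the stage table were also shallower than its G1 cells, with 7422 against 8267. The 8 Pre-OL cells called S by the stage table had a median of 6409 UMIs, against 8902 in the other Pre-OL cells. When both classes were weighted to the same distribution of UMIs, the OPC share exceeded the Pre-OL share by 9.89 points in the integrated calls and by 19.0 points in the stage-table calls, close to the differences in all cells. Free RNA in the droplets can also enter these scores, and its part was not tested.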

How the data were processed

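The files were tables of cells, 1 for each stage and 1 integrated table, of 10x Chromium libraries from sorted EGFP-positive cells. The submitters' processing notes name Cell Ranger, Seurat and GRCz11, without versions. UMIs and detected genes are raw counts in the authors' tables. Mitochondrial UMIs are deposited as a percent, with none above 4.995% and no cell under 504 UMIs, so cells had been filtered. The S and G2M columns are the authors' scores, for which neither the labels nor the headers give gene lists or a method. Map coordinates are deposited scores without unit. Cells were matched between tables by barcode and stage.

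Shares have exact (Clopper-Pearson) 95% intervals and differences of shares Newcombe intervals. A difference met the size rule where the ratio was at least 2, with a count of 0 replaced by 3 cells, and the exact intervals did not overlap. Medians, interquartile ranges and shares of pairs describe cells. The interval code was tested on simulated data. Besides OPC and Pre-OL, MN1 to MN5, pMN1 to pMN3 and RG were named as references. Pre-OPC, Pre-MN and NP2 were added later, after values were seen. Other classes were named for their place beside the members in a ranking of medians or a map, or as names of single cells. These last 2 kinds were also chosen after values were seen. Members and lists were chosen with earlier results of these data known. The fixed lists of marker genes could not be used, since the tables hold no values per gene. Total UMIs were 17562789 in the 48 hpf library. Alternatives were a minimum of 2000 UMIs, exclusion of the deepest 5% of cells, at most 3% mitochondrial UMIs, the stage-table names, only cells named alike, scores above 0.1, S or G2M calls alone, stage-table scores, and weighting to the same UMI distribution in 10 bins (67 cells per class). Cells called S or G2M in both tables, and comparisons with motor neurons within bands of UMIs, were added after seeing the data. The tools were scipy 1.17.1, pandas 2.3.3, numpy 2.4.6 and matplotlib 3.10.9 in Python 3.11.15.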

Additional observations from a re-analysis of the deposited data

How the results depend on the processing

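The sign was kept in 58 of 59 recomputed values. For each class 4 of these values were shares of the library, which cannot be negative. In the 10 values of the integrated calls no Pre-OL cell was called S or G2M, so none could fall below 0. The same held for the stage-table values for scores above 0.1 and for calls in both tables, which repeat the integrated values. By the criteria used, 49 of 59 values were unchanged. These include the stage-table difference for S calls alone, which could not change because neither class had a G2M call there. A share or difference of shares had to stay within the interval of the value reported. It also had to stay on the same side of the size rule, which was not applied to the class shares or the UMI weighting. For the medians, each class had to stay within the interval of its own median in all its cells. The exception in sign was the stage-table difference for G2M calls alone, which was 0 points because neither class had such a call. The integrated difference of 9.45 points met the size rule with the stage-table names (11.5 points, 15 of 131 OPC cells). It did not meet the rule among cells named alike in both tables (9.68 points, 12 of 124). For scores above 0.1 it was 2.36 points. The stage-table difference of 20.9 points no longer met the rule among cells of at most 3% mitochondrial UMIs (21.0 points, with fewer cells), for scores above 0.1 (2.36 points) or for cells called S or G2M in both tables (7.87 points). With at most 3% mitochondrial UMIs the difference in the median mitochondrial percent was -0.196 (-0.184 in all cells) and Pre-OL was 2.26% of the library. With the stage-table scores the differences of medians were 0.0236 for S and 0.0267 for G2M, on another scale. A count of 0 among the 70 Pre-OL cells allows a share of up to 5.13%. No paired analysis was possible because each stage has 1 library.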
